A study of Homo sapiens with 6 samples.

Results

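Transcripts of fibronectin and other matrix glycoproteins were followed in MDA-MB-231 cells, a human triple-negative breast cancer line with mesenchymal features, after stable knockdown of HMGA2. The 10 genes, of 61806 in the deposited table, are FN1, VWA1, THBS1, THBS3, TNC, SPARC, FBN1, FBN2, FBLN1 and ECM1, each found by its symbol. FN1 and VWA1 were selected on their counts, which differed from the control in both knockdown lines, so their levels against the control are described without a test. The other 8 were not chosen for such a change, though all 10 were chosen with earlier results of these data known. Total RNA of 3 lines was sequenced, with 2 libraries each: shNC, which carries a control short hairpin RNA (shRNA), and shHMGA2-1 and shHMGA2-2, which carry different shRNAs against HMGA2. The shRNAs were delivered by lentivirus under puromycin selection, and stable knockdown lines were expanded from single clones. The effect of an shRNA and that of the clone that carries it therefore cannot be told apart. Nothing states that the 2 libraries of a line came from separate cultures, so p-values measure only the spread between these libraries. The library names call the controls WT and give the shHMGA2-1 samples the tag SH2, and groups follow the sample titles here.

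The extracellular matrix is built from collagens, proteoglycans and glycoproteins that cells secrete and bind through integrins. Fibronectin, the product of FN1, is stretched into fibrils at the cell surface and serves as a scaffold on which collagens, fibrillins and thrombospondins are laid down. In carcinoma cells high FN1 is widely used as a sign of the mesenchymal state. Fibrillins form the microfibrils of elastic tissue, fibulins link matrix proteins to each other, and thrombospondins, tenascins and SPARC are matricellular proteins, which change how cells adhere rather than carry load. HMGA2, the protein depleted in these lines, is a chromatin protein that binds AT-rich DNA in the minor groove.

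The 250 bases upstream of the RefSeq transcription start (GRCh38.p14) are printed for the 5 genes whose levels carry the results: FN1 and VWA1, which shifted one way in both knockdown lines, THBS1, which went opposite ways, and TNC and ECM1, each called in a single knockdown line. Each is written 5' to 3' on the strand of the gene, and capitals mark every match, on either strand, to the cyclic AMP response element TGACGTCA, the CCAAT box, the TATA box core TATAA, the GC box GGGCGG, the AP-1 element TGACTCA or the TEAD element GGAATG, where neighbouring or overlapping matches run together. FN1 lies at chr2:215436069-215436318 on the minus strand, VWA1 at chr1:1435440-1435689 on the plus strand, THBS1 at chr15:39580829-39581078 on the plus strand, TNC at chr9:115118158-115118407 on the minus strand and ECM1 at chr1:150507859-150508108 on the plus strand.
FN1: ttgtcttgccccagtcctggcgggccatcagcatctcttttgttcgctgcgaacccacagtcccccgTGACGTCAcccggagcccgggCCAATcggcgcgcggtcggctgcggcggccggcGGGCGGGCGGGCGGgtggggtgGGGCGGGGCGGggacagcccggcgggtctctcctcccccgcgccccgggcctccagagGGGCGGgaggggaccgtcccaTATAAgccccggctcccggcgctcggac
VWA1: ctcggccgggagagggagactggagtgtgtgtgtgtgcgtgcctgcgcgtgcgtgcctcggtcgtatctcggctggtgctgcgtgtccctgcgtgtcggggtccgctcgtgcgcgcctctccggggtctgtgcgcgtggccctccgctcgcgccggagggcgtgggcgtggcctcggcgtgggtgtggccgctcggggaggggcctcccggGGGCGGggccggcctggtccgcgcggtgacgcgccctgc
THBS1: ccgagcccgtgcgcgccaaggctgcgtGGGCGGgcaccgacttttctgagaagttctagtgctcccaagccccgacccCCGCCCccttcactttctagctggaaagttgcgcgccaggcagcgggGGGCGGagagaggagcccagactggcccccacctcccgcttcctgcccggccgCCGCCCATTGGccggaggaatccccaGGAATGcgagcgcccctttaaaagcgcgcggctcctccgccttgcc
TNC: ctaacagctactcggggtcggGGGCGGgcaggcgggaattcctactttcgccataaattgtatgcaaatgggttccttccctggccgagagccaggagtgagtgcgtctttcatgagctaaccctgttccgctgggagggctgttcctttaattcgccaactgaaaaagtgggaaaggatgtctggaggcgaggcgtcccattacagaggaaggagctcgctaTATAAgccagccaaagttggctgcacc
ECM1: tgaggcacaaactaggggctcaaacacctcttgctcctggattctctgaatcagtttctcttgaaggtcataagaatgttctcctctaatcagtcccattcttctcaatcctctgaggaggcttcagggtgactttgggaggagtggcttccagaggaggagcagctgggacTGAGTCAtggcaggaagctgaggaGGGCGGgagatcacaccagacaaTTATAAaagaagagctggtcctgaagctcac

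The FN1 window held 1 match to TGACGTCA, which occurred in 1.65% of 35116 RefSeq promoters of the same length, 175 bases from the start. It also held 1 CCAAT, 1 TATAA and 6 overlapping or separate GGGCGG matches. At least 1 match to these was found in 32.0%, 18.9% and 42.6% of promoters, respectively. The THBS1 window had 1 CCAAT, 4 GGGCGG and 1 GGAATG, the last of which occurred in 11.9% of promoters. TNC had 1 TATAA 22 bases from the start and 1 GGGCGG, VWA1 1 GGGCGG, and ECM1 a TATAA on each strand, 1 GGGCGG and 1 TGACTCA, which 4.20% of promoters held. All 10 genes matched a RefSeq promoter, with 2 for THBS3. GC content over these windows ran from 50.4% in ECM1 to 77.6% in FBLN1, against a median of 58.0% over all promoters. The longest run of A and T letters was 10 bases in ECM1, 7 in THBS1, TNC and FBN1, 6 in FN1 and 3 in VWA1, against a median of 6. A match is a description of these letters and not a binding site. The RefSeq start of VWA1 lay 829 bases from the 5' end of the gene in the deposited table, and that of FN1 lay 5 bases from its own. This distance was 120940 bases for FBN2, 1154 and 127 for the 2 starts of THBS3, 751 for FBN1 and 645 for FBLN1.

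Libraries held 16461178 to 17167293 counts, and 16110 genes passed the filter on low counts and were tested with edgeR's quasi-likelihood test. A gene is said to be called when its adjusted p was under 0.05 and its change at least 2-fold, which are the thresholds of the study. Levels are compared between genes in FPKM, counts scaled by exonic length and by the library total. The targeted gene, HMGA2, gave 2126 and 2161 counts in control libraries, 858 and 989 under shHMGA2-1 and 435 and 482 under shHMGA2-2. Its log2 fold change was -1.29 (SE 0.09, adjusted p = 2.17e-11) in shHMGA2-1 and -2.31 (SE 0.09, adjusted p = 2.11e-16) in shHMGA2-2, and it was lower in shHMGA2-2 than in shHMGA2-1 (log2 fold change -1.01, SE 0.10, adjusted p = 3.07e-09). Of the markers of this cell type, VIM averaged 411 to 425 FPKM over the lines and CD44 65.4 to 94.2. AXL averaged 228, 178 and 129 FPKM in shNC, shHMGA2-1 and shHMGA2-2, and MSN 131, 83.5 and 66.5, the latter called lower in shHMGA2-2. Of the genes that should be low or absent, ESR1, PGR and CDH1 averaged at most 0.04, while ERBB2 averaged 6.57 to 9.73 and EPCAM 3.31 to 6.92. The same shNC libraries serve both comparisons with the control.

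**Figure D1:**
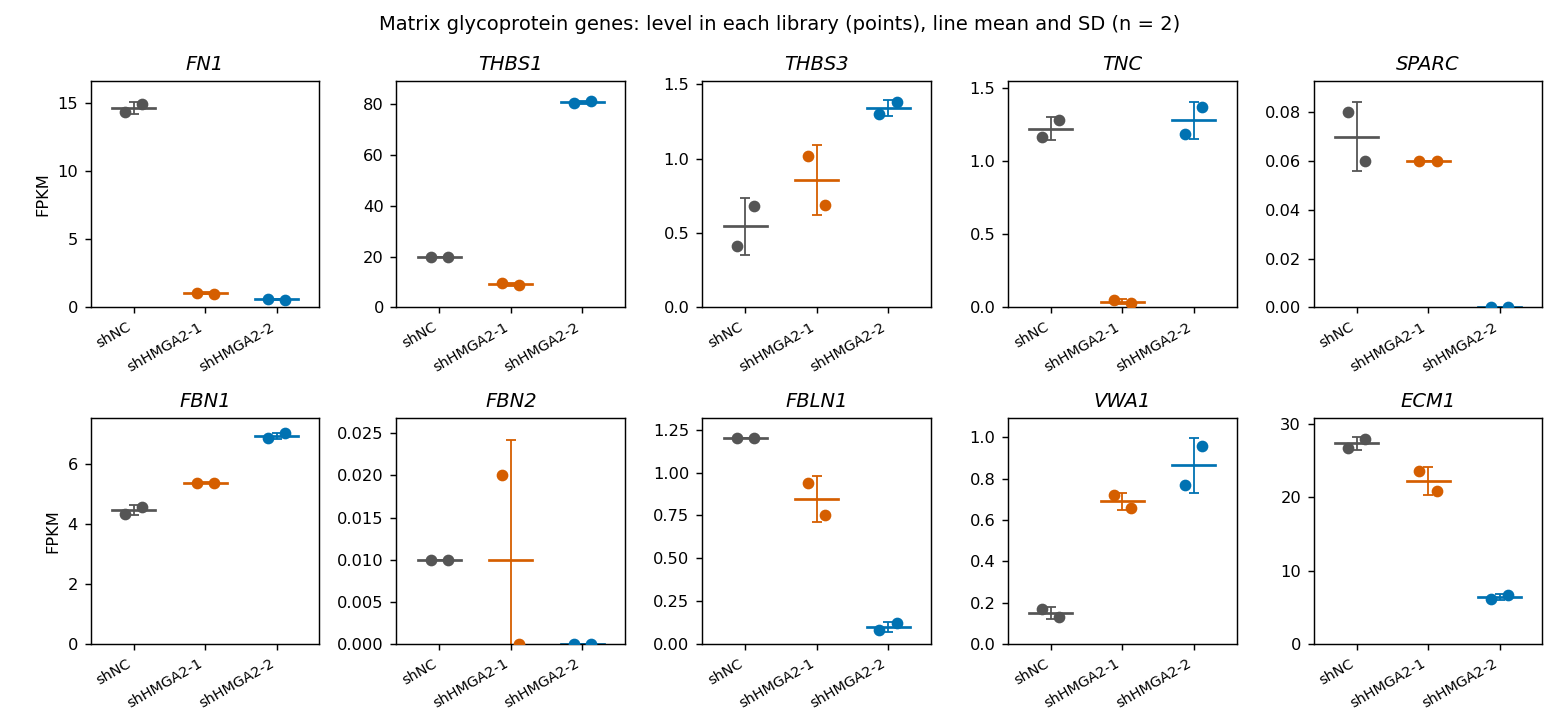
Level of each of the 10 genes in FPKM (vertical axis, from 0, its own scale in each panel) in the 3 lines (horizontal axis). Points are libraries, horizontal bars the mean and vertical bars the SD of 2 libraries. FN1 was near 15 FPKM in shNC and near or under 1 in both knockdown lines, THBS1 was near 80 in shHMGA2-2, and TNC was close to 0 in shHMGA2-1.

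FN1 (ENSG00000115414) spans chr2:215360440-215436073 on the minus strand of GRCh38.p13, with 17216 exonic bases. The controls gave 4187 and 4377 counts, the shHMGA2-1 libraries 321 and 293, and the shHMGA2-2 libraries 177 and 162. The 3 lines did not overlap, and every knockdown library was far below both controls. In FPKM the means were 14.7 ± 0.453 (SD, n = 2), 1.04 ± 0.0707 and 0.595 ± 0.0354. FN1 was 14.7-fold lower in shHMGA2-1 (log2 fold change -3.88, SE 0.09) and 26.7-fold lower in shHMGA2-2 (-4.74, SE 0.10) than in shNC. Of the 16110 tested genes, 40, FN1 included, had a log2 fold change this low or lower in shHMGA2-1, 120 in shHMGA2-2, and 7 in both lines. FN1 was chosen for its change in these comparisons, so its rank is a description. The choice of FN1 did not rest on the comparison between the knockdown lines, but it used the same libraries. In that comparison FN1 was lower in shHMGA2-2 by 0.86 on the log2 scale (SE 0.11, adjusted p = 6.04e-07, edgeR), a difference under 2-fold.

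VWA1 (ENSG00000179403, chr1:1434861-1442882, plus strand, 5065 exonic bases) encodes a small matrix protein with a von Willebrand factor A domain and fibronectin type III repeats. The controls gave 15 and 11 counts, shHMGA2-1 gave 63 and 57, and shHMGA2-2 gave 64 and 81. Every knockdown library was above both controls, and the knockdown lines lay next to each other. The level stayed low throughout, at 0.150 ± 0.0283, 0.690 ± 0.0424 and 0.865 ± 0.134 FPKM (SD, n = 2). The log2 fold change was 2.12 (SE 0.32) in shHMGA2-1 and 2.39 (SE 0.32) in shHMGA2-2, which are 4.34-fold and 5.23-fold. A log2 fold change at least as high was seen in 369 tested genes, VWA1 included, in shHMGA2-1, in 715 in shHMGA2-2 and in 278 in both lines. As VWA1 was chosen for its change, its rank is a description too. The knockdown lines differed by 0.27 on the log2 scale (SE 0.24, adjusted p = 0.374), which did not pass the test.

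Of the 8 genes not chosen for a change, 6 had enough counts to be tested. As earlier results of these data were known at the choice, the numbers called are a description. In shHMGA2-1 against shNC, 2 of these 6, THBS1 and TNC, were called lower, while THBS3, FBN1, FBLN1 and ECM1 were not called. Over all tested genes 3.59% were called lower and 4.89% higher in that comparison. In shHMGA2-2 against shNC, FBLN1 and ECM1 were called lower and THBS1 and THBS3 higher, where 9.65% of all tested genes were called lower and 11.7% higher. FBN1 and TNC were not called. Between the knockdown lines, where 8 of the 10 genes were tested, FBLN1 and ECM1 were called lower in shHMGA2-2 and THBS1 and TNC higher, against 7.27% and 7.83% of all tested genes.

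**Figure D2:**
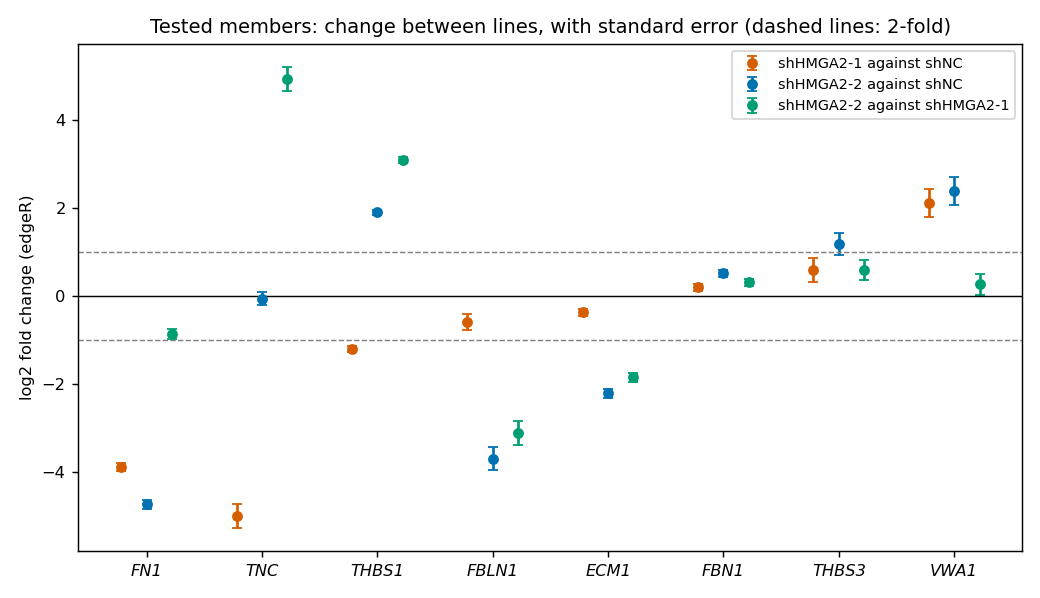
Log2 fold change (vertical axis) of the 8 tested genes for shHMGA2-1 against shNC, shHMGA2-2 against shNC and shHMGA2-2 against shHMGA2-1. Points are edgeR estimates, bars are standard errors and dashed lines mark 2-fold. FN1 lay below -3.8 in both comparisons with shNC, while THBS1 lay at -1.20 in one and 1.91 in the other.

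THBS1 (ENSG00000137801, chr15:39581079-39599466, plus strand, 9158 exonic bases) encodes thrombospondin-1, a matricellular protein that binds CD36 and CD47 and can activate latent TGF-beta. Its counts were 3072 and 3086 for the controls, 1486 and 1353 for shHMGA2-1 and 12097 and 12310 for shHMGA2-2. The shHMGA2-1 libraries were the lowest, at less than 50% of the control count, and the shHMGA2-2 libraries the highest, with no overlap between lines. THBS1 was 2.29-fold lower in shHMGA2-1 (log2 fold change -1.20, SE 0.07, adjusted p = 7.62e-13) and 3.75-fold higher in shHMGA2-2 (1.91, SE 0.06, adjusted p = 7.27e-18). The direct comparison of the knockdown lines gave 8.59-fold more in shHMGA2-2 (3.10, SE 0.07, adjusted p = 4.38e-21). In FPKM THBS1 stood at 19.8 ± 0.0566, 9.04 ± 0.580 and 80.6 ± 0.559 (SD, n = 2). The gene overlaps THBS1-IT1, an intronic transcript, which had 10, 3, 2 and 2 counts in the shNC and shHMGA2-1 libraries and 57 and 53 in shHMGA2-2. FSIP1, which overlaps THBS1 from the opposite strand, had 5 to 21 counts, and THBS1-AS1 at most 8. As the strand and overlap rules of the counting are not given in the sources used here, reads of these genes cannot be told apart.

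THBS3 (ENSG00000169231, chr1:155195588-155209051, minus strand, 4623 exonic bases) belongs to the thrombospondins that resemble cartilage oligomeric matrix protein. Control libraries gave 32 and 53 counts, shHMGA2-1 libraries 81 and 55, and shHMGA2-2 libraries 99 and 106. The shHMGA2-2 libraries lay above all others, and the lower shHMGA2-1 library was close to the higher control. The log2 fold change was 1.19 in shHMGA2-2 (SE 0.25, adjusted p = 2.56e-04) and 0.60 in shHMGA2-1 (SE 0.26, adjusted p = 0.0875), and the knockdown lines differed by 0.59 (SE 0.23, adjusted p = 0.0375). These values depended on single control libraries. Without shNC replicate 1 the change in shHMGA2-2 was 0.86 (adjusted p = 0.0159, edgeR) and was no longer called. Without shNC replicate 2 the change in shHMGA2-1 was 1.01 (adjusted p = 0.0359) and was called. THBS3 overlaps MTX1, with 211 to 285 counts, and THBS3-AS1, with 5 to 13, on the opposite strand.

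TNC (ENSG00000041982, chr9:115019575-115118257, minus strand, 9639 exonic bases) encodes tenascin-C, which weakens adhesion of cells to fibronectin. Its counts were 192 and 210 for the controls, 8 and 5 for shHMGA2-1 and 189 and 219 for shHMGA2-2. The control and shHMGA2-2 ranges overlapped, and shHMGA2-1 was far below both. TNC was 32.0-fold lower in shHMGA2-1 than in shNC (log2 fold change -5.00, SE 0.27, adjusted p = 4.89e-13), and differed by -0.06 in shHMGA2-2 (SE 0.15, adjusted p = 0.755). Between the knockdown lines it was 30.8-fold higher in shHMGA2-2 (4.94, SE 0.27, adjusted p = 1.28e-13). SPARC (ENSG00000113140, chr5:151661096-151686975, minus strand), a collagen-binding matricellular protein, was near the limit of detection, at 6 and 5 counts for the controls, 5 and 5 for shHMGA2-1 and 0 and 0 for shHMGA2-2. With a floor of 3 counts per library, SPARC was at least 1.94-fold lower in shHMGA2-2 than in shNC. It did not pass the filter on low counts. Without that filter edgeR called it lower in shHMGA2-2 than in shNC (adjusted p = 0.0101) and than in shHMGA2-1 (adjusted p = 0.0199), and DESeq2 called it lower than in shNC (adjusted p = 0.0372).

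FBN1 (ENSG00000166147, chr15:48408313-48645721, minus strand, 18525 exonic bases) encodes fibrillin-1, the main microfibril protein. The controls gave 1364 and 1439 counts, shHMGA2-1 gave 1701 and 1704, and shHMGA2-2 gave 2091 and 2151, so that the lines did not overlap. The steps were small, each under 2-fold. The log2 fold change was 0.20 in shHMGA2-1 (SE 0.07, adjusted p = 0.0382), 0.52 in shHMGA2-2 (SE 0.07, adjusted p = 1.72e-06) and 0.32 between the knockdown lines (SE 0.07, adjusted p = 8.46e-04). In shHMGA2-1 the adjusted p was 0.110 with DESeq2, and in edgeR 0.120 without the filter on low counts and 0.0808 with the replicate number in the model. With limma it was 0.0576 on log2(FPKM + 1) and 0.0510 on log2(FPKM + 0.1). In edgeR it stayed under 0.05 with upper quartile scaling (0.00643) and with a filter at a mean CPM of 1 (0.0317). FBN2 (ENSG00000138829, chr5:128257909-128659185, minus strand), the fibrillin of early development, had 3 and 2, 5 and 1, and 0 and 1 counts in the same order and was not tested. Its levels were too low to compare at this depth.

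FBLN1 (ENSG00000077942, chr22:45502238-45601135, plus strand, 7285 exonic bases) encodes fibulin-1, which binds fibronectin and is incorporated into its fibrils. Its counts were 149 and 148 for the controls, 117 and 93 for shHMGA2-1 and 10 and 14 for shHMGA2-2. The lines did not overlap, and the shHMGA2-2 libraries stood far below the rest. FBLN1 was 12.96-fold lower in shHMGA2-2 than in shNC (log2 fold change -3.70, SE 0.26, adjusted p = 1.29e-11) and 8.68-fold lower than in shHMGA2-1 (-3.12, SE 0.28, adjusted p = 1.21e-09). In shHMGA2-1 it was lower than in shNC by 0.58 on the log2 scale (SE 0.18, adjusted p = 0.0159), under 2-fold. That adjusted p was 0.151 with DESeq2 and 0.132 with limma on log2(FPKM + 0.1). It stayed under 0.05 with the other alternatives that kept all 6 libraries and the 3 lines apart.

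ECM1 (ENSG00000143369, chr1:150508062-150513789, plus strand, 3360 exonic bases) encodes extracellular matrix protein 1, a secreted glycoprotein that binds perlecan and MMP9. Control libraries gave 1528 and 1599 counts, shHMGA2-1 libraries 1362 and 1203, and shHMGA2-2 libraries 338 and 374. All 3 lines were separate, and the shHMGA2-2 libraries were far below the rest. ECM1 was 4.64-fold lower in shHMGA2-2 than in shNC (log2 fold change -2.22, SE 0.09, adjusted p = 4.97e-16) and 3.61-fold lower than in shHMGA2-1 (-1.85, SE 0.09, adjusted p = 3.15e-14). Its change in shHMGA2-1 was -0.37 (SE 0.08, adjusted p = 0.00135).

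The order of these genes by FPKM changed from line to line. In shNC ECM1 (27.4 ± 0.877) stood first, followed by THBS1, FN1 and FBN1 (4.46 ± 0.163), whose libraries did not overlap. TNC and FBLN1 came next at about 1.2 FPKM and overlapped, ahead of THBS3, VWA1, SPARC and FBN2. In shHMGA2-1 ECM1 (22.3 ± 1.91) and THBS1 kept the first places, FBN1 (5.36 ± 0.0141) passed FN1, and the libraries of FN1, THBS3 and FBLN1 overlapped as neighbours. In shHMGA2-2 THBS1 was followed by FBN1 (6.93 ± 0.0990), ECM1 (6.41 ± 0.424) and the overlapping pair THBS3 and TNC, with FN1 below VWA1. Summed over the 10 genes the level was 69.5 ± 1.77 FPKM in shNC, 40.2 ± 2.98 in shHMGA2-1 and 98.2 ± 1.39 in shHMGA2-2 (SD, n = 2). THBS1 made up 28.5% of that sum in shNC, 22.5% in shHMGA2-1 and 82.2% in shHMGA2-2. The share of FN1 went from 21.1% to 2.59% and 0.607%, and that of ECM1 from 39.4% to 55.3% and 6.53%. FBN1 held 6.41%, 13.4% and 7.06%.

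The libraries are bulk RNA, in which fewer cells of a type and less RNA per cell cannot be told apart. Fibroblasts are a rich source of these glycoproteins, and of 10 fibroblast markers 6 were at or under 3 counts in every library, with PDGFRA, DCN and LUM at 0. The summed fibroblast level was 1.21 to 1.27 FPKM in shNC, 2.22 to 3.11 in shHMGA2-1 and 2.08 to 2.26 in shHMGA2-2. The 3 fibroblast markers that were tested went different ways. In the order shNC, shHMGA2-1 and shHMGA2-2, PDGFRB was at 0.22 ± 0.0707, 0.075 ± 0.00707 and 0.52 ± 0.0990 FPKM (SD, n = 2), called lower in shHMGA2-1 and higher in shHMGA2-2. COL1A1 was at 0.43 ± 0.113, 1.36 ± 0.240 and 0.55 ± 0.0566, and ACTA2 at 0.56 ± 0.127, 1.21 ± 0.403 and 1.07 ± 0.163, both called higher in shHMGA2-1. Of 8 leukocyte markers 6 were at or under 3 counts throughout, 3 of them at 0 (CD3E, CD3D and MS4A1), and their sum ranged from 0.01 to 0.27 FPKM in shNC, 0.12 to 0.14 in shHMGA2-1 and 0.16 to 0.54 in shHMGA2-2. Of 5 endothelial markers 2, TEK and VWF, were at or under 3 counts throughout. The endothelial sums were 0.65 to 0.66, 0.45 to 0.60 and 0.46 to 0.58 FPKM in the same order of lines. KDR, the most abundant of them at a mean of 0.485 to 0.535 FPKM, was not called. PECAM1, which never exceeded 14 counts, was called lower in both knockdown lines. Its log2 fold change was -3.56 in each (adjusted p = 0.00436 for shHMGA2-1 and 0.00207 for shHMGA2-2, edgeR). The sum of 9 luminal epithelial markers, of which PGR was at or under 3 counts throughout, was 57.2 to 58.4 FPKM in shNC, 51.6 to 57.3 in shHMGA2-1 and 70.9 to 76.5 in shHMGA2-2, the line in which THBS1 was highest and ECM1 and FBLN1 lowest. Within that list GATA3 and KRT8 were called higher in shHMGA2-2 and FOXA1 and KRT19 lower. The mesenchymal markers VIM, CD44, AXL and MSN summed to 837 to 863 FPKM in shNC, 748 to 783 in shHMGA2-1 and 701 in each shHMGA2-2 library, and the 5 markers low or absent in this cell type (ESR1, PGR, ERBB2, CDH1 and EPCAM) to 9.81 to 10.03, 15.5 to 17.4 and 12.8 to 13.5. The part of these markers in the results was not tested.

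The other genes of the same pathway came from lists of 89 matrix glycoprotein and fibronectin receptor genes. The lists were drawn up with earlier results of these data known, so the shares called are a description. Among the glycoproteins, 37 genes other than the 10 above were tested. In shHMGA2-1 2 of these 37 (5.41%) were called lower and 8 (21.6%) higher, against 3.59% and 4.89% of all tested genes. Their median log2 fold change was 0.38, against 0.01 over all tested genes. In shHMGA2-2 10 (27.0%) were called lower and 8 (21.6%) higher, against 9.65% and 11.7% of all tested genes, and the medians were -0.28 and 0.03. Between the knockdown lines 13 (35.1%) were called lower in shHMGA2-2 and 6 (16.2%) higher, against 7.27% and 7.83%, with medians of -0.46 and -0.0017.

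Among thrombospondins and tenascins, THBS2, a relative of THBS1, gave 278 and 296 counts for the controls, 498 and 465 for shHMGA2-1 and 0 and 0 for shHMGA2-2. Against the floor of 3 counts per library it was at least 101-fold lower in shHMGA2-2 than in shNC. THBS2 and THBS1 thus differed in opposite directions from the control in shHMGA2-2. TNXB, a tenascin of connective tissue whose reads may be shared with the near-identical copy TNXA, was called lower in shHMGA2-2 (log2 fold change -1.84, SE 0.20, adjusted p = 1.72e-08).

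Of 5 further fibulins and hemicentins tested, 1 was called lower and 2 higher in shHMGA2-1, where 3.59% and 4.89% of all tested genes were, and 1 lower and 2 higher in shHMGA2-2, where 9.65% and 11.7% were. EFEMP1 (fibulin-3) had 3.52 and 3.57 FPKM for the controls, 1.38 and 1.27 for shHMGA2-1 and 13.9 and 14.3 for shHMGA2-2, the same order of lines as THBS1. Its log2 fold change was -1.48 in shHMGA2-1 (SE 0.14, adjusted p = 6.07e-09) and 1.87 in shHMGA2-2 (SE 0.11, adjusted p = 1.57e-13). FBLN5, which promotes elastic fibre assembly, rose in shHMGA2-1 (log2 fold change 2.54, SE 0.21, adjusted p = 7.47e-10), and in shHMGA2-2 the value was 0.30 (adjusted p = 0.334). FBLN7 fell in shHMGA2-2 (-2.20, SE 0.22, adjusted p = 7.25e-09), as FBLN1 did. EFEMP2 (fibulin-4) was called higher in both lines, from 2 and 3 counts in shNC to 25 and 13 in shHMGA2-1 and 41 and 55 in shHMGA2-2.

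Of 6 further fibrillin and microfibril genes tested, LTBP4 had the highest level, 8.77 to 12.4 FPKM over the lines, and was not called. LTBP3, which binds latent TGF-beta, was called higher in both lines (log2 fold changes 1.66, SE 0.23, and 2.09, SE 0.23). LTBP2 was called higher in shHMGA2-1 (1.01, SE 0.11, adjusted p = 6.02e-08), with a value of -0.78 in shHMGA2-2 (SE 0.12, adjusted p = 6.02e-06). MFAP2, a microfibril-associated protein, was called lower in shHMGA2-2 (-3.97, SE 0.40, adjusted p = 5.36e-09). The matrilins MATN2 and MATN3, which share the domain type of VWA1, were called higher in shHMGA2-1 (1.11, SE 0.09, and 1.41, SE 0.17), with values of 0.52 and -0.97 in shHMGA2-2. EMILIN2 and EMILIN1, the tested genes of the elastin and emilin list, averaged 1.23 to 2.16 and 0.13 to 0.20 FPKM and were not called. In the SPARC family SPOCK1 was called higher in both lines, from 0 and 5 counts in shNC to 13 and 19 in shHMGA2-1 and 214 and 182 in shHMGA2-2, SPOCK2 averaged at most 0.09 FPKM and was not called, and FSTL1 was called lower in shHMGA2-2 (-1.01, SE 0.06, adjusted p = 4.62e-13).

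CCN1 and CCN2, matricellular proteins induced by YAP, averaged 286 to 359 and 257 to 343 FPKM over the lines and were not called in any comparison. The same held for CRIM1, at 116 to 197 FPKM, and PXDN, at 25.4 to 37.1. CCN3 was called lower in shHMGA2-2 (log2 fold change -1.94, SE 0.13, adjusted p = 7.30e-12). EDIL3, an integrin ligand, had 35.4 and 35.5 FPKM for the controls, 15.3 and 19.7 for shHMGA2-1 and 1.88 and 1.77 for shHMGA2-2. It was called lower in both lines (-1.08, SE 0.09, adjusted p = 1.04e-09, and -4.40, SE 0.12, adjusted p = 7.38e-20). IGFBP7 was called lower in shHMGA2-2 (-2.84, SE 0.10, adjusted p = 2.08e-17) and TGFBI higher (2.70, SE 0.20, adjusted p = 3.15e-11). FREM2 was called lower (-1.06) and FRAS1, its partner at epithelial basement membranes, higher (1.50) in the same line. At low counts SPON2 was called higher in both lines, at 0 and 0 counts for the controls, 8 and 11 for shHMGA2-1 and 13 and 24 for shHMGA2-2. RELN was called higher in shHMGA2-2, with 5 and 5, 1 and 1, and 35 and 15 counts, and CTHRC1 lower, with 14 and 10, 13 and 7, and 3 and 0.

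Of 13 genes for fibronectin receptors, fibril assembly and crosslinking, 11 were tested. ITGA5 and ITGB1 encode the subunits of the main fibronectin receptor. ITGA5, which was named for this role and not by a rule, averaged 11.6 FPKM in shNC, 9.29 in shHMGA2-1 and 9.28 in shHMGA2-2 and was not called. ITGB1 had 256 and 256 FPKM for the controls, 220.1 and 237 for shHMGA2-1 and 103 and 97.8 for shHMGA2-2, and fell in shHMGA2-2 (log2 fold change -1.47, SE 0.06, adjusted p = 1.27e-16). SDC4, a heparan sulfate co-receptor for fibronectin, had 54.6 and 52.4 FPKM for the controls, 45.0 and 45.0 for shHMGA2-1 and 227 and 215 for shHMGA2-2, and rose in the latter (1.93, SE 0.07, adjusted p = 1.15e-17). TGM2, which crosslinks fibronectin, was called higher in both lines (1.08, SE 0.07, adjusted p = 1.03e-11, and 1.65, SE 0.07, adjusted p = 5.25e-16). The lysyl oxidase gene LOXL1 was called lower in both (-1.29, SE 0.21, adjusted p = 3.55e-05, and -4.22, SE 0.31, adjusted p = 1.54e-11), and LOX and ITGB3 in shHMGA2-2 (-1.14, SE 0.10, and -3.32, SE 0.58). LOXL2, the third most abundant gene of this list, averaged 47.4 to 58.5 FPKM over the lines and was not called.

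The genes whose pattern over the 6 libraries was nearest to that of FN1, by Euclidean distance of log2 CPM from the control mean among 9634 candidates, were CLMP (distance 0.738), TLR4 (1.10) and GALNT3 (1.40). Their log2 fold changes were -3.69 and -4.39 for CLMP, -3.18 and -4.65 for TLR4 and -3.41 and -5.55 for GALNT3, in shHMGA2-1 and shHMGA2-2. For VWA1 the nearest were REEP2 (0.217), JAG2 (0.422) and CYP26B1 (0.547), at 2.08 and 2.37, 1.95 and 2.16, and 1.73 and 2.45. VWA1 itself averaged 0.799, 3.49 and 4.21 CPM in shNC, shHMGA2-1 and shHMGA2-2, so genes at its own level were not among the candidates. These genes were selected for this likeness, so the values are a description. Next to FN1 on chromosome 2, ATIC, which ends 10667 bases before it, was at 0.03 in shHMGA2-1 (adjusted p = 0.774, edgeR) and at -0.37 in shHMGA2-2 (adjusted p = 8.03e-05). MREG, the nearest tested gene on the other side, starts 506511 bases after FN1 and had -0.21 and -0.19 (adjusted p = 0.355 and 0.344). Next to VWA1, ATAD3B, which starts 28883 bases after it, was at 0.10 in shHMGA2-1 (adjusted p = 0.557) and called higher at 1.00 in shHMGA2-2 (adjusted p = 2.59e-08). On the other side MRPL20-DT had 0.12 (adjusted p = 0.884) and 1.76 (adjusted p = 6.86e-04). No other gene of the table overlapped FN1, VWA1, FBLN1 or ECM1.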

How the data were processed

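RNA of 6 libraries was measured by RNA-seq, and groups were taken from the sample titles. The authors deposited a table with a whole-number read count and an FPKM per gene and library. The deposited FPKM was the count divided by exonic size and library total, recomputed for 100% of values. The submitters' processing notes name HISAT2 version 2.2.1, HTSeq version 0.6.1 and GRCh38.p13. Annotation release and strand setting are not given in the sources used here. Sample columns not used numbered 0.

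Counts were tested with edgeR version 4.0.16 in R version 4.3.3 (TMM, filterByExpr by line, quasi-likelihood test in a model with 3 lines, Benjamini-Hochberg adjustment over 16110 genes) and checked on simulated data. Replicates of a line differed beyond counting noise (chi-square per degree of freedom 2.03 to 6.21). Alternatives were DESeq2 version 1.42.0, limma version 3.58.1 on log2(FPKM + 1) and log2(FPKM + 0.1), other filters and scaling, the replicate block, the 4 knockdown libraries as 1 group, and each library left out. The 10 genes and all lists were chosen with earlier results of these data known. Named besides the 10 were HMGA2, listed genes called in a comparison or, where tested, among the 3 highest in FPKM of their list, the 3 genes nearest in pattern to FN1 and to VWA1, their nearest tested neighbours and genes overlapping a member with over 3 counts. ITGA5 was named outside this rule, after its values were seen. The floor of 3 counts covers counting error only. Standard errors of the edgeR fit cover counting error and the spread between the libraries of a line. Promoters are from RefSeq (GRCh38.p14).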

Additional observations from a re-analysis of the deposited data

Results flagged for a closer look

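By the edgeR comparison of shHMGA2-2 with shHMGA2-1, 4 of the 8 tested genes were called different between the knockdown lines. Of all tested genes, 7.27% were called lower and 7.83% higher. The log2 fold change was 3.10 for THBS1 and 4.94 for TNC, both higher in shHMGA2-2, and -3.12 for FBLN1 and -1.85 for ECM1, both lower in shHMGA2-2. Every library of one line lay on the same side of every library of the other for these 4 genes. FN1, FBN1 and THBS3 also differed between the knockdown lines, at adjusted p under 0.05 (edgeR) but under 2-fold.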

How the results depend on the processing

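The number of the genes called was 2 of 6 tested in shHMGA2-1, 4 of 6 in shHMGA2-2 and 4 of 8 between the knockdown lines. FN1 and VWA1 were left out of both comparisons with the control. The shares of all tested genes called lower and higher were 3.59% and 4.89%, 9.65% and 11.7%, and 7.27% and 7.83%. Over the alternatives that kept all 6 libraries and the 3 lines apart, the number of the genes called was 2, from 3 to 5 and from 3 to 5. The fit with the 4 knockdown libraries as 1 group is not in these ranges and is given below. With the replicate block it was 2, 4 and 4. The correlation of replicate differences between lines ran from -0.10 to 0.0021. With 2 libraries per line this cannot show whether replicate numbers paired the samples. Leaving out each library in turn gave 2 to 3, 3 to 4 and 4 to 4. Treating the 4 knockdown libraries as 1 group reversed THBS1 relative to shHMGA2-1 (log2 fold change 1.07, adjusted p = 0.537, edgeR) and ended the calls of TNC (-1.01), FBLN1 (-1.42), ECM1 (-1.01) and THBS3 (0.92). In that fit the difference between the knockdown lines counts as error. On log2(FPKM + 1), which understates changes of low genes, limma gave FN1 -2.94 and -3.29 and VWA1 0.56 and 0.70, and THBS3 in shHMGA2-2 (0.60) and FBLN1 between the knockdown lines (-0.74) fell under 2-fold. The change of TNC in shHMGA2-2, -0.06 and not called, changed sign, still not called, with upper quartile scaling (0.055), limma on log2(FPKM + 1) and log2(FPKM + 0.1) (0.035 and 0.057), and when shNC replicate 2 (0.0067) or shHMGA2-2 replicate 1 (0.022) was left out. Over the libraries left out in turn it ranged from -0.15 to 0.022. Depth limits SPARC and FBN2, which had at most 6 counts in any library.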

Other observations

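Over all 48 tested genes of the lists other than the 10 genes, 3 were called lower and 9 higher in shHMGA2-1, against 3.59% and 4.89% of all tested genes. In shHMGA2-2 14 were called lower and 10 higher, against 9.65% and 11.7%. Between the knockdown lines 16 were called lower in shHMGA2-2 and 7 higher, against 7.27% and 7.83%. Leaving out each library in turn, an alternative chosen after seeing the data, the called genes among these 48 numbered 11 to 12 in shHMGA2-1, 22 to 24 in shHMGA2-2 and 21 to 24 between the knockdown lines.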
